A study of Mus musculus with 7 samples.

Results

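Immediate early transcription factors were examined in spleens of mice given lipopolysaccharide (LPS), the outer membrane glycolipid of Gram-negative bacteria. The 10 genes, taken by symbol from the 17920 genes of the expression table, were Fos, Fosb, Jun, Junb, Egr1, Egr2, Egr3, Ier2, Atf3 and Nr4a1, and all 10 were found. The mice were C57BL/6, 8 weeks old, and received 20 mg/kg LPS into the peritoneum. Spleens were taken 90 min or 6 h later from wild-type mice and from mice labelled GdX-/- (GdX-/Y in the protocol), which lack the X-linked ubiquitin-like protein GdX, also called UBL4A. At 90 min each genotype had 2 libraries. At 6 h wild type had 2 and GdX-deficient spleen had 1. Every group had received LPS, and no spleen without LPS was analysed here, so none of the levels can be read as an induction. RNA came from the crushed organ and reflects all of its cells. A lower value can therefore mean fewer cells of a type or less RNA per cell, and these cannot be told apart.

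Immediate early genes are transcribed within minutes of a stimulus from factors already present in the cell, without new protein synthesis, and most of their transcripts are short-lived. MAP kinases downstream of Toll-like receptor 4, the LPS receptor, act on serum response factor with its ETS-family partners at CArG boxes and on CREB and ATF proteins at cyclic AMP response elements (CRE). FOS and JUN proteins dimerise to form AP-1, EGR proteins are zinc finger factors, NR4A1 is an orphan nuclear receptor, ATF3 is a stress-induced leucine zipper protein that restrains Toll-like receptor responses in macrophages, and IER2 is a small nuclear protein of the same response. The same genes are also induced when tissue is handled or dissociated.

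Promoter sequences are shown because 6 of the 7 genes printed here were lower at 6 h than at 90 min in all wild-type libraries and Atf3 was not. RefSeq promoters (build GRCm38.p6, 250 bases before to 50 after an annotated start) were matched for 7 of the 10 genes. Egr1, Egr3 and Ier2 are named only. Egr2 had 5 annotated starts, of which the one with most other starts nearby was used. The 120 bases before each start follow, 5′ to 3′ on the gene's strand, with motif matches in capitals: CRE core (TGACG, or CGTCA on the other strand), the Jun-type site TGACATCA, the EGR site (GCGNGGGCG or its complement) and the CArG box.
Fos (chr12:85473770-85473889, plus strand): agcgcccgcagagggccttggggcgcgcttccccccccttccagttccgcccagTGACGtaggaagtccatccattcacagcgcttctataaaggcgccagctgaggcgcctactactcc
Fosb (chr7:19310046-19310165, minus strand): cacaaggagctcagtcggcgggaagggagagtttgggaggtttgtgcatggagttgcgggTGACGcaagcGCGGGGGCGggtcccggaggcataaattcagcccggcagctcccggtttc
Jun (chr4:95052223-95052342, minus strand): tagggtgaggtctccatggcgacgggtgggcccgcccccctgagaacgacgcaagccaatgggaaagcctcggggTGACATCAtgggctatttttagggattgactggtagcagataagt
Junb (chr8:84978749-84978868, minus strand): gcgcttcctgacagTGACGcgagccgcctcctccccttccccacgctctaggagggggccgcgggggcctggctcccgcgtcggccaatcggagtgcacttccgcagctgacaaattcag
Egr2 (chr10:67537749-67537868, plus strand): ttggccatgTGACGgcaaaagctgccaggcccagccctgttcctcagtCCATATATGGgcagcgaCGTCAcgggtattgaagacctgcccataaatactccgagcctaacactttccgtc
Atf3 (chr1:191183334-191183453, minus strand): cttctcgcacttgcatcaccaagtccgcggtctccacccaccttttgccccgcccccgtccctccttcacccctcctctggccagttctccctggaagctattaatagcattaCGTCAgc
Nr4a1 (chr15:101266726-101266845, plus strand): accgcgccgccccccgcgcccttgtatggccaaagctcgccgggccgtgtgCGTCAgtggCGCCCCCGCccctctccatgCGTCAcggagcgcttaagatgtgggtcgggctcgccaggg
A CRE core was found on either strand in the 300-base window of 6 of the 7 genes, all but Jun, against 20.9% of the 32544 distinct promoters of the table. Jun held TGACATCA at -45 to -38 from its start, a sequence present in 3.37% of promoters. The Egr2 window held the CArG box at -72 to -63, found in 1.64% of promoters, and was the 1 window of the 7 with it. Fosb and Nr4a1 held an EGR site, against 5.6% of promoters. An NF-kB site, searched by its usual degenerate consensus, occurred in Fos, Fosb and Nr4a1, against 4.53%. No window held the full CRE TGACGTCA (1.80% of promoters) or the AP-1 site TGANTCA (7.79%). The CRE core is part of the full CRE, and no other searched motifs overlap by construction. These matches describe letters in a window and no binding was measured.

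**Figure D1:**
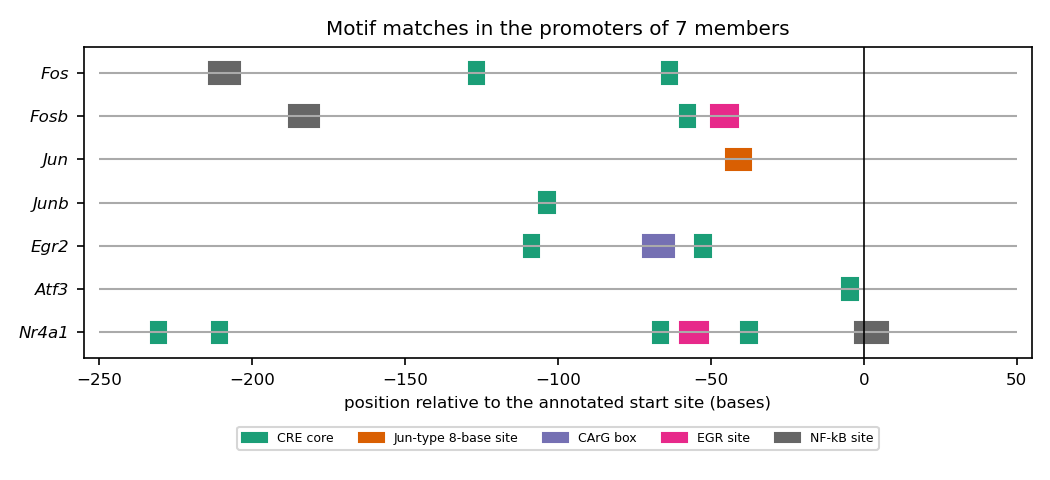
Motif matches in 7 promoters, by position in bases relative to the annotated start site (vertical line). Each box is 1 match on either strand, coloured by motif, and CRE core boxes appear in every row except Jun.

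Depth and sample quality bear on every value. Depth, estimated from the steps between low FPKM values (fragments scaled to transcript length and to the fragments mapped in the library), lay between 18000000 and 20500000 fragments per library. The FPKM of the targeted gene Ubl4a overlapped between genotypes at 90 min (4.03 and 5.69 against 5.62 and 7.50 in wild type). By 6 h it was 10.6 against 11.9 and 14.0. The sum of Ubl4a and the overlapping entry Gm44504 was lower in GdX-deficient libraries at each time (5.04 to 11.2 against 21.0 to 63.0). Spleen identity markers were present in every library: all 6 B-cell genes, the 5 T-cell genes in the table and Spic of red pulp macrophages were above 0. In replicate 2 of the GdX-deficient 90 min group the 6 neutrophil markers summed to 4654 FPKM, against 973 in replicate 1 and 669 and 1060 in wild type. The wild-type B-cell sum went from 1326 and 1466 FPKM to 468 and 469 FPKM by 6 h, while the GdX-deficient 6 h library had 1727. The part of these shifts in the results was not tested. The series text counts 4 wild-type and 3 GdX-deficient mice, as many as there are libraries.

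At 90 min in wild type, Junb was the most abundant member at 590 ± 52.9 FPKM (SD, n = 2). Ier2 followed at 213 ± 9.62 FPKM and Nr4a1 at 200 ± 41.4 FPKM, whose libraries overlapped. Jun stood at 125 ± 48.9 FPKM, below both. Egr1 (55.2 ± 4.08 FPKM) and Atf3 (51.2 ± 11.2 FPKM) overlapped each other. Fos, the classical partner of Jun, was far lower at 16.8 ± 2.16 FPKM. Egr2 (7.91 ± 2.24 FPKM) and Egr3 (7.46 ± 1.00 FPKM) could not be ordered, and Fosb was lowest at 1.03 ± 0.0636 FPKM. At 6 h in wild type Junb still led at 198 ± 1.80 FPKM, followed by Ier2 (79.8 ± 14.8 FPKM), Atf3 (51.2 ± 7.52 FPKM), Jun (45.7 ± 21.5 FPKM) and Nr4a1 (29.6 ± 7.86 FPKM). Jun overlapped both Atf3 and Nr4a1. Fosb had a mean of 0.651 FPKM over the 7 libraries, under the minimum mean of 1 FPKM for testing, and rested on about 21 to 80 fragments per library. The other 9 genes passed and were tested among 11378 genes with limma on log2(FPKM + 1), with Benjamini-Hochberg adjusted p and a threshold of 0.05.

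**Figure D2:**
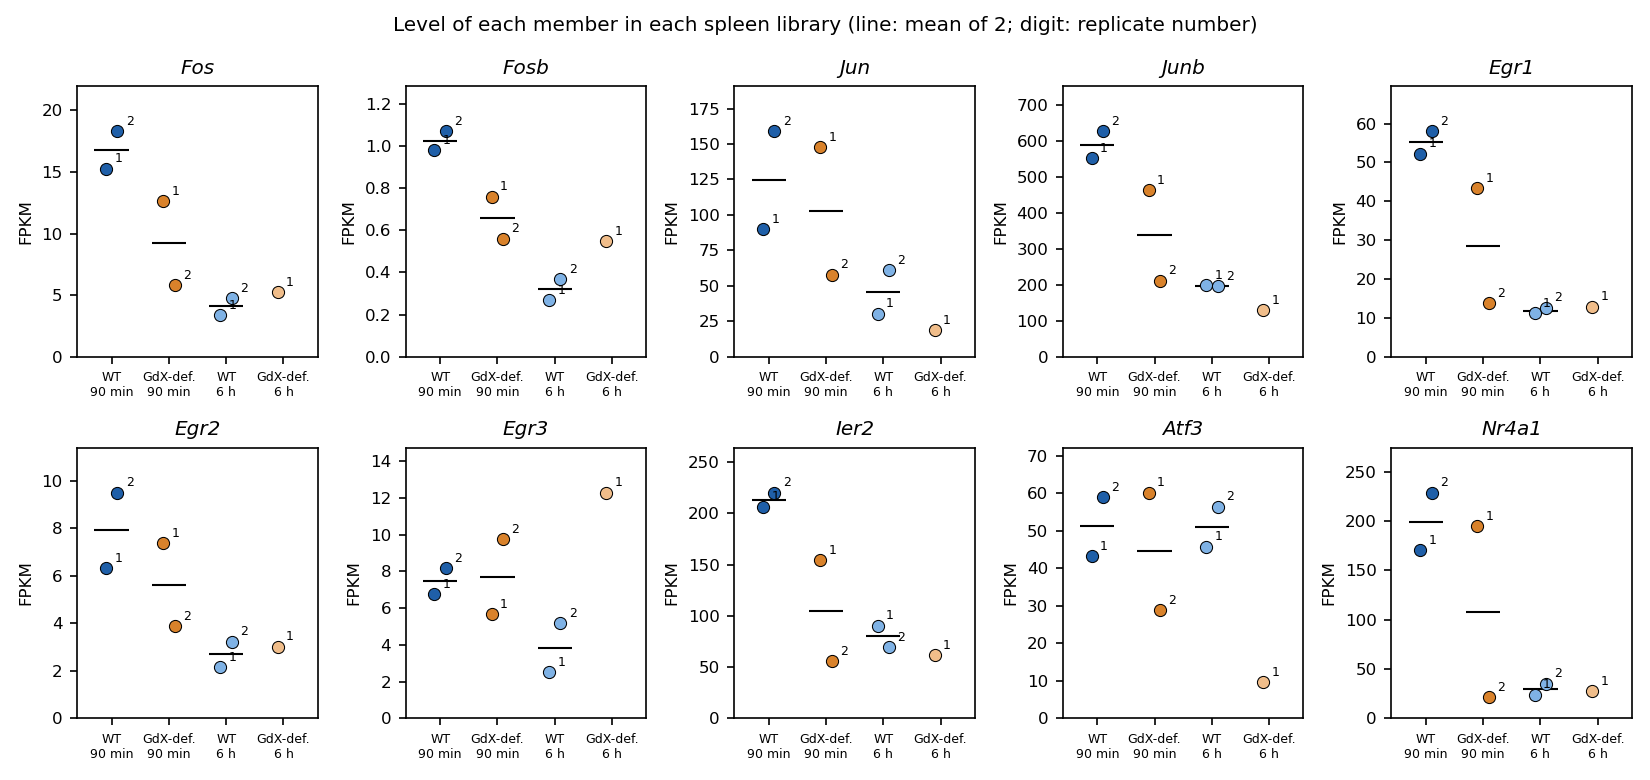
FPKM of each of the 10 genes by group (points: libraries, digit: replicate number, line: mean of 2 libraries). Replicate 2 of the GdX-deficient 90 min group lies near the 6 h points for Egr1, Junb, Ier2 and Nr4a1, and Atf3 is lowest in the single GdX-deficient 6 h library.

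The first comparison is between 90 min and 6 h after LPS in wild-type spleen. Of the 10 genes, 9 were lower in both 6 h libraries than in either 90 min library, all but Atf3. Of all genes listed, 26.8% were separated in that direction. In the limma fit of the 4 groups, Egr1, Fos and Junb fell significantly, 3 of the 9 tested, where 6.32% of all tested genes were called lower and 10.7% in either direction. The median log2 difference of the 9 was -1.45, against 0.05 over all genes tested, and 8 of the 9 had an unadjusted p under 0.05 (28.7% of all genes).

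Egr1, which encodes a zinc finger activator, measured 52.3 and 58.1 FPKM in wild type at 90 min, falling to 11.2 and 12.6 FPKM by 6 h. The groups were well apart, with a mean 4.64-fold higher at 90 min (log2 difference -2.12, SE 0.45, limma adjusted p = 0.0195). Fos, the leucine zipper subunit that needs a JUN partner, was 15.3 and 18.3 FPKM against 3.39 and 4.79 FPKM, again without overlap (-1.81, SE 0.37, limma adjusted p = 0.0186). Junb, an AP-1 subunit with weaker activation than JUN, was 553 and 628 FPKM against 199 and 196 FPKM. Its 6 h replicates were nearly identical, and the difference passed the threshold (-1.57, SE 0.35, limma adjusted p = 0.0247). The call on Fos was lost without replicate 2 of wild type at 90 min (limma adjusted p = 0.0644). None of the 3 passed when genes of low mean were kept (limma adjusted p from 0.0736 to 0.0912).

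Nr4a1 had the largest difference of the 9, at 170 and 229 FPKM against 24.1 and 35.2 FPKM, 6.74-fold between means. It missed the threshold (-2.72, SE 0.77, limma adjusted p = 0.0542), and its standard error was the largest of the 9. The GdX-deficient 90 min pair, which enters the shared fit, differed 9.09-fold. With the 4 wild-type libraries alone, where 5.87% of all tested genes were called lower, it passed (limma adjusted p = 0.0106). Ier2 was 207 and 220 FPKM against 90.3 and 69.3 FPKM (-1.42, limma adjusted p = 0.0591), and it too passed with the wild-type libraries alone (0.0234). Jun, whose promoter responds to its own product, was 90.0 and 159 FPKM against 30.5 and 60.9 FPKM (-1.45, limma adjusted p = 0.0867). Its wild-type times did not overlap, but its replicates differed by 0.82 at 90 min and by 0.97 at 6 h on the log2 scale. It passed without wild-type replicate 1 at 90 min (-1.86, limma adjusted p = 0.0223) and without replicate 2 at 6 h (-1.94, 0.00151), in 2 of 14 alternatives. Those fits called 2.83% and 9.69% of all tested genes lower.

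Egr2, best known in T-cell tolerance and myelination, was 6.32 and 9.49 FPKM against 2.14 and 3.23 FPKM (-1.27, limma adjusted p = 0.0549). The closely related Egr3 was 6.75 and 8.17 FPKM against 2.51 and 5.17 FPKM (-0.86, limma adjusted p = 0.168). Both passed in 3 of 14 alternatives: with the replicate number as a block (limma adjusted p = 0.0341 for Egr2 and 0.0419 for Egr3), with the length trend removed (0.0314 and 0.0361) and without wild-type 6 h replicate 2 (0.0159 and 0.0351). Those fits called 11.2%, 12.3% and 9.69% of all tested genes lower. Fosb, the least abundant AP-1 subunit here, was 0.98 and 1.07 FPKM against 0.27 and 0.37 FPKM. It could be tested only without the filter on low values, where it passed (-0.62, SE 0.10, limma adjusted p = 0.0456). That fit called 2.22% of its 17920 genes lower. Atf3 was the exception, at 43.3 and 59.1 FPKM against 45.8 and 56.5 FPKM, and its times overlapped fully (0.01, SE 0.36, limma adjusted p = 0.992). In this comparison cell type markers were also called lower at 6 h: 2 of 6 B-cell, 3 of 5 T-cell, 4 of 6 macrophage and monocyte and 5 of 5 erythroid markers, with 1 of 6 stromal and endothelial and 0 of 6 neutrophil markers, against 6.32% of all tested genes. Of the 12 handling genes, Hspb1 (-2.44, limma adjusted p = 0.00734) and Hspa1b (-2.52, 0.0139) were called lower and Hspd1 (1.64, 0.0053) higher. Their part in the fall of the early genes was not tested.

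**Figure D3:**
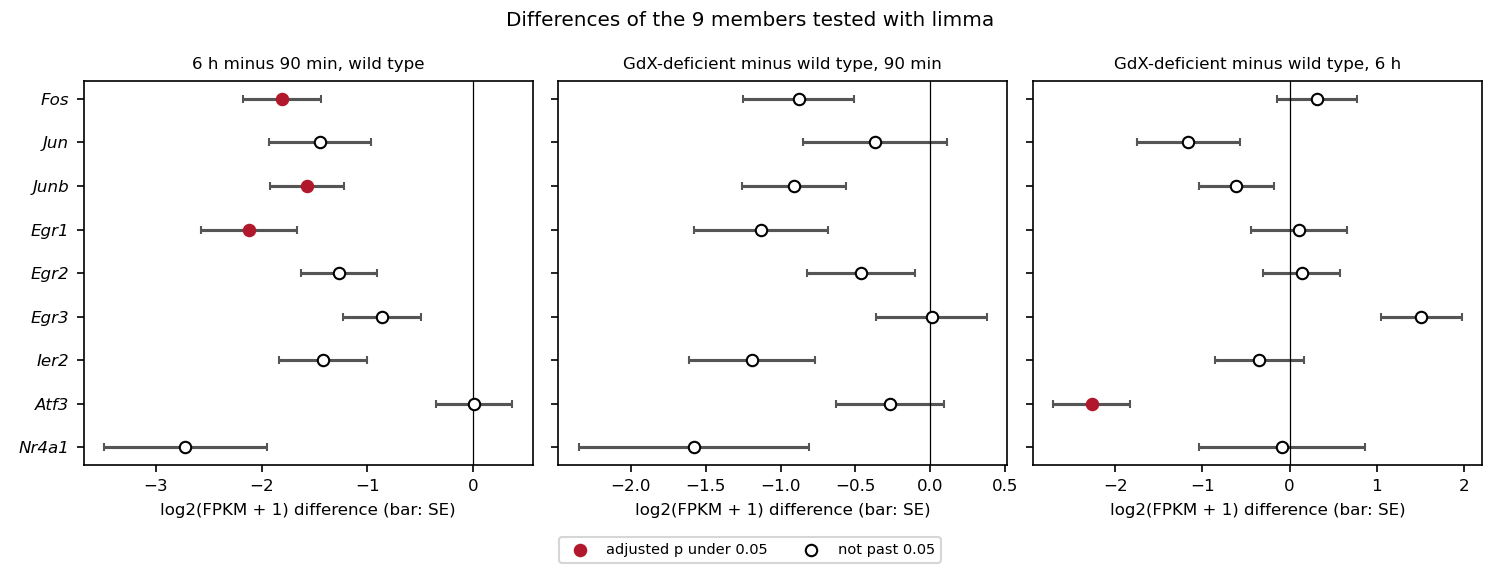
Log2(FPKM + 1) differences of the 9 tested genes with their standard errors, for 6 h minus 90 min in wild type and for genotype at each time. Filled points passed an adjusted p of 0.05 in limma: Fos, Junb and Egr1 with time, and Atf3 with genotype at 6 h.

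Genotype was compared at 90 min, where both sides have 2 libraries. Of the 10 genes, Fos, Fosb, Junb, Egr1 and Ier2 were each lower in the GdX-deficient pair than in the wild-type pair with no overlap, 5 of 10. Of all genes listed, 20.9% were separated in that direction. The median log2 difference of the 9 tested was -0.88, against 0.07 over all genes, and 8 of the 9 were below 0. None passed the limma threshold (adjusted p from 0.603 to 0.994), as only 0.0176% of all tested genes did, and 4 of the 9 had an unadjusted p under 0.05 (7.58% of all genes).

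Ier2 measured 154 and 55.8 FPKM in GdX-deficient against 207 and 220 FPKM in wild-type spleen (log2 difference -1.19, SE 0.42, limma adjusted p = 0.603). Egr1 was 43.5 and 13.8 FPKM against 52.3 and 58.1 FPKM (-1.13, SE 0.45, 0.621). Junb was 465 and 212 FPKM against 553 and 628 FPKM (-0.91, SE 0.35, 0.621). In each of these genes both GdX-deficient libraries lay below wild type, replicate 2 much further than replicate 1. Fos was 12.6 and 5.83 FPKM against 15.3 and 18.3 FPKM (-0.88, SE 0.37, 0.621), and Fosb was 0.76 and 0.56 FPKM against 0.98 and 1.07 FPKM. Nr4a1 split the GdX-deficient pair most, at 195 and 21.4 FPKM against 170 and 229 FPKM (-1.58, SE 0.77, 0.621). One of its libraries lay within the wild-type range and the other 9.33-fold below the wild-type mean.

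Jun was 148 and 58.0 FPKM against 90.0 and 159 FPKM, Egr2 was 7.37 and 3.88 FPKM against 6.32 and 9.49 FPKM, and Atf3 was 60.2 and 28.9 FPKM against 43.3 and 59.1 FPKM. These 3 overlapped between genotypes, replicate 2 being the lowest of the 4 libraries each time. Egr3 ran the other way, with 5.67 and 9.76 FPKM against 6.75 and 8.17 FPKM, and replicate 2 was its highest value.

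Most of these differences shrank without replicate 2. In its absence the log2 difference was -0.38 for Fos, -0.34 for Junb, -0.34 for Egr1, -0.47 for Ier2, -0.07 for Egr2 and -0.02 for Nr4a1, and Jun (0.30) and Atf3 (0.25) turned above 0. Without replicate 1 it was -1.38 for Fos, -1.47 for Junb, -1.92 for Egr1, -1.91 for Ier2 and -3.15 for Nr4a1. On the log2 scale replicate 2 was nearer to the wild-type 6 h mean than to the wild-type 90 min mean for 8 of the 9 genes other than Atf3, all but Egr3. Replicate 1 was nearer to 6 h for 0 of these 9. Atf3 did not separate the wild-type times (0.01) and is left out of this count. Over all tested genes the share nearer to 6 h was 34.8% for replicate 2 and 24.1% for replicate 1. Among the 1218 genes called with time in wild type it was 15.0% and 6.57%. Neutrophil markers were high in replicate 2, as given above. The 6 B-cell markers had a median difference from wild type of 0.69 there, with 0 below the wild-type mean. In replicate 1 it was -0.26, with 4 below. Over all tested genes the medians were 0.18 in replicate 2 and -0.04 in replicate 1. Markers of 2 other cell types stood apart in both GdX-deficient libraries at 90 min. All 5 erythroid markers were higher without overlap (median 1.01, 1.09 in each library, all 5 with an unadjusted p under 0.05), where 20.2% of all genes listed were, summing to 1172 and 966 FPKM against 509 and 579 FPKM. Of the 6 stromal and endothelial markers, 4 were lower without overlap (median -0.83, 3 with an unadjusted p under 0.05), with sums of 52.4 and 54.9 FPKM against 86.3 and 75.4 FPKM. Of all genes listed, 20.9% were lower without overlap, and 7.58% of all tested genes had an unadjusted p under 0.05 in limma. None of these erythroid, stromal and endothelial markers passed the adjusted threshold.

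The 12 heat shock and chaperone genes used as markers of tissue handling had a median difference of -0.51 in replicate 1 and 0.24 in replicate 2. Over all tested genes it was -0.04 and 0.18. In replicate 1, 11 of the 12 were below the wild-type mean (55.2% of all tested genes), and in replicate 2, 5 were (38.3%). Their sum (1940 and 2517 FPKM, against 2733 and 2474 FPKM in wild type) was mostly Hspa8, at 1242 to 1586 FPKM. Single members differed from it: Hspb1, a small heat shock protein, was 16.6 and 8.81 FPKM against 90.6 and 47.1 FPKM (-2.34, SE 0.39, limma adjusted p = 0.317), and Dnajb1, an HSP70 co-chaperone, was 18.1 and 39.3 FPKM against 13.4 and 17.9 FPKM (0.75, SE 0.37, 0.621). The part of these cell type and handling markers in the genotype difference was not tested.

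**Figure D4:**
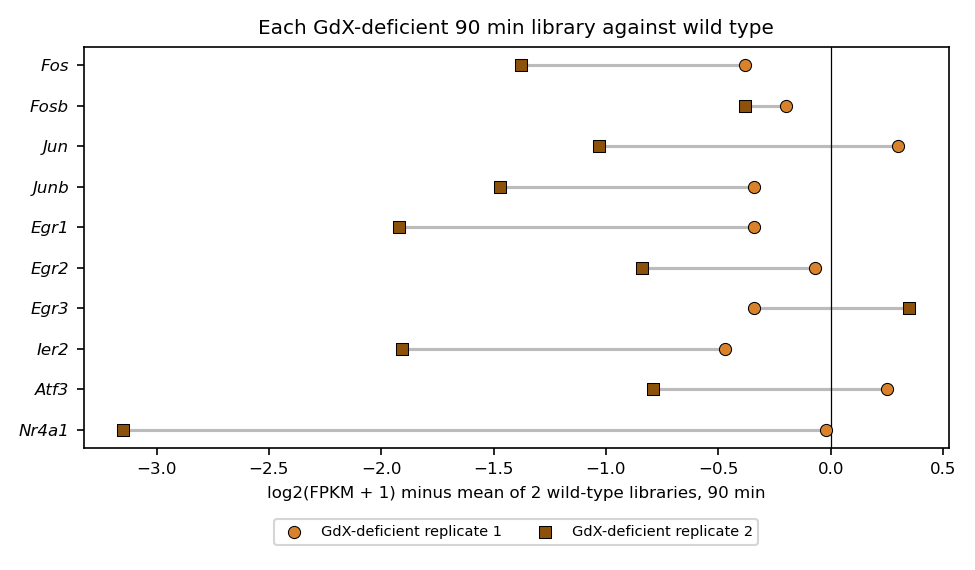
Log2(FPKM + 1) of each GdX-deficient 90 min library minus the mean of the 2 wild-type libraries at 90 min, for all 10 genes. Replicate 2 (squares) reaches -3.15 for Nr4a1, while replicate 1 (circles) stays between -0.47 and 0.30.

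At 6 h a single GdX-deficient library stood against 2 of wild type, with no replicate check, and its test assumes that it varies like the pairs. The 10 genes went both ways. Jun, Junb, Ier2 and Atf3 lay below both wild-type libraries, and Fos, Fosb, Egr1 and Egr3 lay above both. Of all genes listed, 20.3% lay below both and 53.0% above both. The median of the 9 tested was -0.09 on the log2 scale, against 0.32 over all genes. After quantile normalization, which removes that overall shift, Fos (-0.25), Egr1 (-0.21) and Egr2 (-0.42) were below 0.

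Atf3 was 9.74 FPKM in the GdX-deficient library and 45.8 and 56.5 FPKM in wild type, 5.25-fold below the wild-type mean. It was the 1 call among the 9 (log2 difference -2.27, SE 0.44, limma adjusted p = 0.0336), where 3.96% of all tested genes were called and 1.05% were called lower. With Egr3 it made 2 of 9 at an unadjusted p under 0.05 (28.4% of all genes). The call was lost when genes of low mean were kept (limma adjusted p = 0.0962). It held in 12 of 13 alternatives, all with this 1 library on the GdX-deficient side. Cell type markers were also higher in this library than in both wild-type libraries: 5 of 6 B-cell markers (median 2.12, 2 called), 4 of 5 T-cell (1.10, 1 called), 6 of 6 neutrophil (1.63, 0 called), 6 of 6 macrophage and monocyte (1.13, 1 called) and 5 of 5 erythroid (2.16, 4 called), where 2.91% of all tested genes were called higher. Of all genes listed, 53.0% lay above both and 20.3% below both, and the median over all tested genes was 0.32. Among the 6 stromal and endothelial markers, 4 lay above both and 1 below both (median 0.84). Of the 12 handling genes, 8 lay above both and 3 below both (median 0.70), with 2.57 for Hspa1b and -1.53 for Hspd1. The part of all these markers in the results at 6 h was not tested. Egr3 was 12.3 FPKM against 2.51 and 5.17 FPKM, the highest level in any library (1.51, SE 0.46, limma adjusted p = 0.0822). Egr3 passed in 3 of 13 alternatives: with the replicate number as a block (1.80, limma adjusted p = 0.00843), without the length trend (1.15, 0.0484) and without wild-type replicate 2 (1.92, 0.00477). Those fits called 29.7%, 10.3% and 26.7% of all tested genes. Jun was 18.7 FPKM against 30.5 and 60.9 FPKM (-1.16, SE 0.59, limma adjusted p = 0.230), and it passed without wild-type replicate 1 (-1.65, 0.0355), where 6.16% of all genes did. Junb was 129 FPKM against 199 and 196 FPKM (-0.61, SE 0.43, 0.374), and Ier2 was 61.7 FPKM against 90.3 and 69.3 FPKM (-0.35, 0.661).

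None of the remaining genes passed at this time. Fos was 5.25 FPKM against 3.39 and 4.79 FPKM, and Egr1 was 12.9 FPKM against 11.2 and 12.6 FPKM. Egr2 (3.01 FPKM against 2.14 and 3.23) and Nr4a1 (27.3 FPKM against 24.1 and 35.2) lay between the wild-type libraries. Fosb, which was not tested with the filter on, was 0.55 FPKM against 0.27 and 0.37 FPKM, 1.72-fold the wild-type mean on about 40 fragments against 21 and 28.

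Within GdX-deficient spleen, the 6 h library was below both 90 min libraries for 7 of the 10 genes, as for 15.8% of all genes listed. The exceptions were Ier2 and Nr4a1, which lay between them, and Egr3, which was above both (51.0% of all genes listed). Among cell type markers, 5 of 5 erythroid lay below both 90 min libraries (median -0.74) and 6 of 6 stromal and endothelial above both (0.75). The B-cell, T-cell, neutrophil and macrophage and monocyte sets had medians from 0.02 to 0.38, against 0.25 over all tested genes. The part of these markers in the fall was not tested. Jun (148 and 58.0 FPKM at 90 min, 18.7 FPKM at 6 h) and Atf3 (60.2 and 28.9 FPKM, then 9.74 FPKM) had the largest log2 differences, -2.25 and -1.99. Limma called none of the 9 (adjusted p from 0.148 to 0.813), 3 had an unadjusted p under 0.05 (8.0% of all genes, 910 in number), and 0.0% of all tested genes were called. The median of the 9 was -0.88 with both 90 min libraries, -1.67 without replicate 2 and -0.13 without replicate 1. Under the alternatives Jun ranged from -2.91 to -1.58 and Atf3 from -2.51 to -1.48. Both passed in 5 of 13, and Junb in 1, each time with the lone 6 h library. Those fits called 0.527% to 2.21% of all tested genes.

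Whether the genotype difference itself changed between the times was tested as an interaction, which rests on the same lone library. None of the 9 passed, 2 had an unadjusted p under 0.05 (9.98% of all genes), and 0.0703% of all tested genes were called. Atf3 had the smallest p, with a genotype difference lower at 6 h than at 90 min (-2.0, SE 0.56, limma adjusted p = 0.228), followed by Egr3 (1.51, SE 0.59, 0.422). The design has little reach here: in simulated data with 200 of 11378 genes changed by 2 on the log2 scale, this test recovered 0%.

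Both times were then joined, with time as a covariate (3 libraries against 4). Junb and Ier2 were lower in GdX-deficient libraries at both times without overlap, 2 of the 10 genes, as for 9.27% of all genes listed. The median of the 9 was -0.68, against 0.16 over all genes. Atf3 (-1.07, SE 0.40, limma adjusted p = 0.133), Ier2 (-0.86, SE 0.33, 0.142) and Junb (-0.79, SE 0.27, 0.120) had an unadjusted p under 0.05 (27.0% of all genes). None passed the threshold, which 0.0439% of all tested genes did. When GdX-deficient 90 min replicate 1 was left out, Atf3 (-1.53, limma adjusted p = 0.0284) and Junb (-1.04, 0.0354) passed, but that fit called 14.7% of all tested genes (4.1% lower). Without the GdX-deficient 6 h library the Atf3 value was -0.27.

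Across the 7 libraries most of these genes followed one another, as a description over libraries that share treatment and time. The log2 level of each was set against the mean standardised level of the other 8 tested genes. Pearson's r was 0.98 for Egr1, 0.97 for Fos and Egr2, 0.96 for Junb and Nr4a1, 0.90 for Jun and 0.88 for Ier2. Atf3 (0.47) and Egr3 (-0.01) followed the others least. The sum over the 10 genes was 1145 and 1390 FPKM in wild type at 90 min and 1091 FPKM in replicate 1 of the GdX-deficient pair. In replicate 2 it was 410 FPKM, close to the 409 and 445 FPKM of wild type at 6 h, and it was 281 FPKM in the GdX-deficient 6 h library. Outside the lists, the 5 genes most like the mean of the 9 were Tgif2 and Akap12 (r = 0.991 each), Rnd3 and Sema4c (0.990 each) and Zbtb10 (0.988), over 7 libraries. At 90 min Akap12 was 42.4 FPKM in replicate 1 and 15.95 FPKM in replicate 2 without GdX, against 41.4 and 67.2 FPKM in wild type. Akap12 was picked for its likeness over these same 7 libraries, so its values are no separate evidence.

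Other leucine zipper genes of the AP-1, ATF and Maf families were listed for comparison (17 genes, 16 tested). With time in wild type 3 of the 16 fell and 1 rose (6.32% of all tested genes were called lower and 10.7% either way), and the median was -0.35 against 0.05 over all genes. Fosl2, a FOS relative with slower kinetics, fell by 1.63 (SE 0.30, limma adjusted p = 0.0121), Jund, the JUN protein of resting cells, fell by 1.51 (SE 0.28, 0.0130), and Maff, a small Maf protein, fell by 1.56 (SE 0.37, 0.0297). Atf4, the factor of the integrated stress response, rose by 1.04 (SE 0.27, 0.0379). At 90 min none of the 16 differed by genotype in limma, 5 had an unadjusted p under 0.05 (7.58% of all genes), and the median was -0.54 against 0.07 over all genes. By library it was -0.79 for replicate 2 and -0.21 for replicate 1. The largest differences were in Batf (317 and 93.8 FPKM against 403 and 380 FPKM), Jdp2 (-0.97) and Jund (-0.86). At 6 h 2 of the 16 were called, both lower, where 1.05% of all tested genes were called lower and 3.96% either way. Crem, which encodes cyclic AMP response repressors, was lower in the GdX-deficient library at 6.82 FPKM against 36.4 and 31.9 FPKM (-2.17, SE 0.44, limma adjusted p = 0.0382). Atf4 was lower too, at 193 against 635 and 494 FPKM (-1.53, SE 0.32, 0.0393).

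Of 24 other early response genes, 21 were tested. In wild type 7 of the 21 fell with time and none rose (6.32% of all tested genes were called lower and 10.7% either way), with a median of -0.63 against 0.05 over all genes. Btg2, an antiproliferative gene, fell by 2.24 (SE 0.23, limma adjusted p = 0.00131), Nr4a3, a relative of Nr4a1, fell by 2.74 (SE 0.42, 0.00646), and Klf4, a macrophage differentiation factor, fell by 1.35 (SE 0.26, 0.0155). At 90 min 20 of the 21 were below 0 in GdX-deficient spleen with a median of -0.37 against 0.07, where 43.5% of all genes were below 0. None passed in limma, and 3 had an unadjusted p under 0.05 (7.58% of all genes). The largest differences were in Ier3 (-1.21), Cyr61 (-1.08) and Dusp1 (-0.99). By library, the median was -0.91 for replicate 2 and -0.19 for replicate 1. At 6 h Btg2 was higher in the GdX-deficient library, 77.8 FPKM against 22.9 and 23.2 FPKM (1.71, SE 0.28, limma adjusted p = 0.0219). This was 1 call of 21, near the 3.96% of all tested genes called at this time (2.91% higher).

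**Figure D5:**
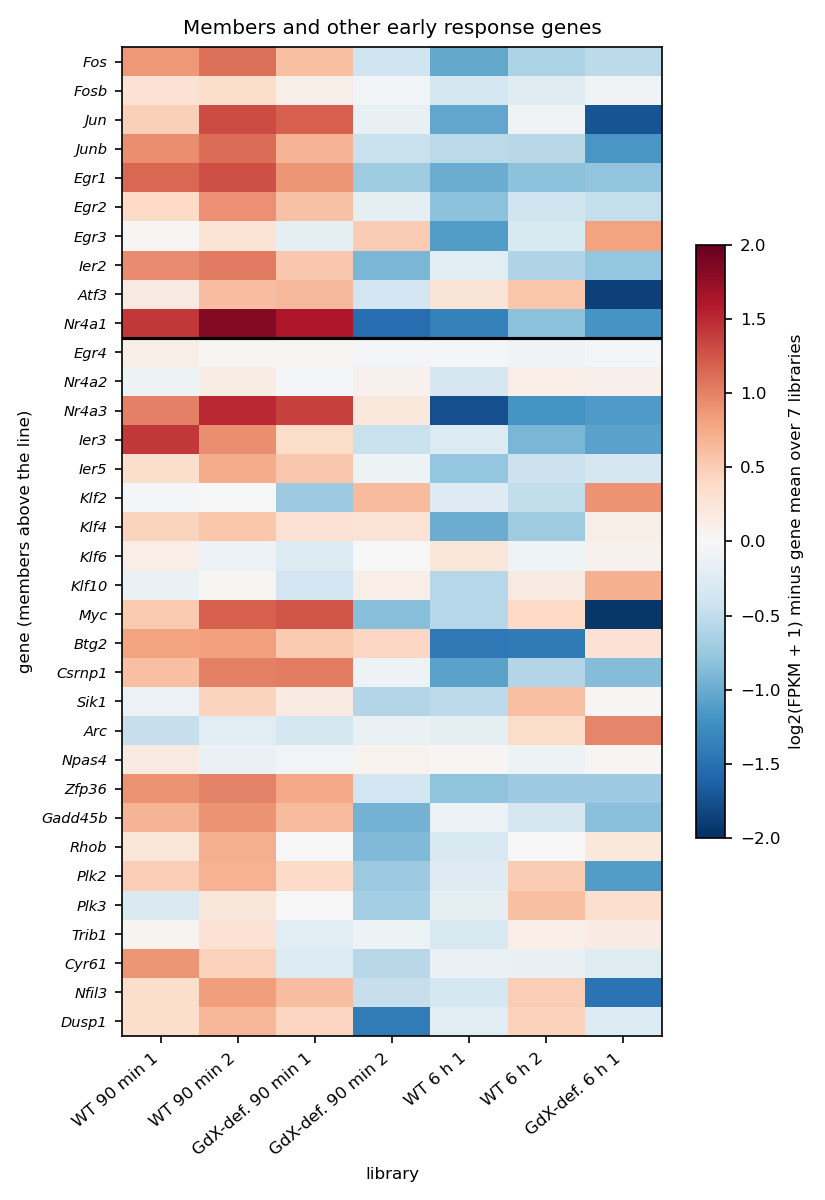
Log2(FPKM + 1) minus the gene's mean over 7 libraries, for the 10 genes (above the line) and the 24 other early response genes, by library. The column of GdX-deficient replicate 2 at 90 min is below the other 90 min columns for Nr4a1, Egr1, Ier2, Myc, Gadd45b and Dusp1.

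Upstream factors and kinases were the last list (22 genes, all tested). At 90 min their median genotype difference was 0.16, against 0.07 over all genes, and 7 of the 22 were below 0, against 43.5% of all genes. None passed in limma (0.0176% of all genes did) or had an unadjusted p under 0.05 (7.58%). The largest values were in Elk4 (1.14), Mapk14 (0.74) and Mkl1 (0.55). Srf, the factor that binds CArG boxes, was 28.2 and 23.6 FPKM without GdX, against 36.2 and 38.4 FPKM in wild type (-0.52, SE 0.25, limma adjusted p = 0.621). With time in wild type 2 of the 22 fell, near the share of all tested genes (6.32% lower, 10.7% either way): Mapk11, a p38 kinase (-1.56, SE 0.33, limma adjusted p = 0.0199), and Map2k3, a p38 activator (-1.13, SE 0.25, 0.0238). At 6 h 17 of the 22 lay above both wild-type libraries, as did 53.0% of all genes listed, and 1 was called, about the 3.96% of all tested genes. It was Map2k6, another p38 activator, higher in the GdX-deficient library, 2.93 FPKM against 0.14 and 0.21 FPKM (1.74, SE 0.38, limma adjusted p = 0.0410). Nab1 and Nab2, which encode co-repressors of EGR proteins, did not pass in any of these 3 comparisons.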

How the data were processed

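Spleen RNA of 7 libraries was sequenced on a BGISEQ-500, per the labels' protocols. The authors deposited FPKM values with 2 decimals per gene and library, per the file headers. HISAT2 2.0.4, HISAT, Bowtie2, RSEM and GRCm38.p5 are named in the submitters' processing notes without their roles. Groups came from the sample titles, and all 7 value columns were used. The 10 genes and the lists beside them were chosen with earlier results of these data known.

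Genes with a mean of at least 1 FPKM (11378 of 17920) entered limma 3.58.1, run under R 4.3.3 (empirical Bayes with trend, two-sided) on log2(FPKM + 1), a scale that understates changes of low genes. The 4 groups shared 1 fit, whose spread comes from the 3 pairs, and genotype with time as covariate was an additive fit. P-values were adjusted by Benjamini-Hochberg over all tested genes. They measure the spread between these libraries. Depth was estimated from steps of low FPKM values in 197 to 232 genes with 1 transcript. It is approximate, as GENCODE M21 lengths were used. The fits were tested on simulated data, where 200 changed genes (2 on the log2 scale, among 11378) were recovered at 65.5% for genotype at 90 min, 50.5% at 6 h, 60.5% for time in wild type, 25% for time in GdX-deficient and 90% with time as covariate. Named genes were all 10, then up to 3 per list and comparison by smallest p among calls or, with no call, largest difference. Srf, Atf4 (time in wild type), Hspb1, Hspa1b, Hspd1, Dnajb1 and Hspa8 were named in addition after their values were seen. The settings varied were the pseudocount (0.1), the filter (none, or 5 FPKM), quantile normalization, the replicate number as block, the libraries in the fit, each library left out, and a transcript length trend.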

Additional observations from a re-analysis of the deposited data

Results flagged for a closer look

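For 3 of the 10 genes both GdX-deficient libraries were below both wild-type libraries at 90 min, while the single GdX-deficient library was above both wild-type libraries at 6 h. Of all genes listed, 7.72% had this pattern (1384 of 17920). The genotype difference at 6 h minus that at 90 min was 1.24 on the log2 scale for Egr1 (limma adjusted p = 0.632), 1.19 for Fos (0.572) and 0.52 for Fosb (0.268, fitted without the filter on low values). The interaction test passed for none of the 3, and the 6 h side has 1 library. After quantile normalization Egr1 and Fos no longer lay above wild type at 6 h on average (-0.21 and -0.25).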

How the results depend on the processing

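Of 711 values of single genes under the alternatives, 642 kept their direction and side of the threshold, 40 passed in addition, 5 no longer passed and 24 turned sign. Counts of genes called in all, with the alternatives that moved them by over 1.5 times, were as follows. Genotype at 90 min gave 2, against 181 with only the libraries compared and 0 with the length trend removed. Genotype at 6 h gave 450 (331 higher, 119 lower), against 90 with no filter, 236 at a mean of 5 FPKM, 270 after quantile normalization (166 higher, 104 lower), 885 with only the libraries compared and 1148 with the length trend removed (636 higher, 512 lower). Its members called were 1, against 0 with no filter and 2 with the length trend removed. Time in wild type gave 1218, against 635 with no filter and 2414 with the length trend removed, and members called among the 9 tested were 3, against 0 with no filter (where Fosb, tested there alone, passed), 5 with only the libraries compared and 5 with the length trend removed. Time in GdX-deficient spleen gave 0, against 22 with no filter, 251 with only the libraries compared (3 members, in a fit of 2 libraries against 1 whose spread rests on that pair) and 2 with the length trend removed. The interaction gave 8, against 0 with a pseudocount of 0.1, 3 with no filter, 0 at a mean of 5 FPKM, 4 after quantile normalization and 45 with the length trend removed. Egr3 at 6 h passed in 3 alternatives and Jun in 1, as given above. The cause of these shifts was not tested.

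With the replicate number as a block, the calls were 3383 for genotype at 6 h (2 members), 2345 for time in wild type (7 members, with Egr2, Egr3, Ier2 and Nr4a1 in addition), 37 for time in GdX-deficient, 80 for the interaction and 12 with time as covariate. The numbers are only shared: same-numbered replicates deviated with r = 0.768 between the wild-type groups, -0.12 between genotypes at 90 min and 0.08 between GdX-deficient 90 min and wild-type 6 h.

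Leaving out 1 library gave 2 to 183 calls for genotype at 90 min, 627 to 3035 at 6 h (1 to 2 members), 450 to 1774 for time in wild type (3 to 8 members), 0 to 236 for time in GdX-deficient (0 to 2 members), 0 to 238 for the interaction (0 to 1 members) and 2 to 1674 with time as covariate (0 to 2 members).

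Signs turned for genotype at 90 min in Egr3 (-0.14 after quantile normalization, -0.12 with the length trend removed, -0.34 and -0.11 without GdX-deficient replicate 2 or wild-type replicate 1), Jun (0.30 and 0.04 without GdX-deficient or wild-type replicate 2) and Atf3 (0.25 without GdX-deficient replicate 2). At 6 h they turned in Fos (-0.25, quantile), Egr1 (-0.21 quantile, -0.10 block, -0.24 length), Egr2 (-0.42 quantile, -0.20 length, -0.08 without wild-type replicate 1), Nr4a1 and the median (0.17 each without wild-type replicate 2). For time in wild type Atf3 gave -0.12 (quantile), -0.07 (length), -0.21 without wild-type 90 min replicate 1 and -0.14 without 6 h replicate 2. Without GdX-deficient 90 min replicate 1, time in GdX-deficient gave 0.14 for Ier2 and 0.33 for Nr4a1. Without replicate 2, the interaction gave -0.27 for Junb and -0.07 for Nr4a1, and genotype with time as covariate gave 0.04 for Egr2. Over all single libraries left out, these values ranged from -1.03 to 0.30 for Jun, -0.34 to 0.35 for Egr3 and -0.79 to 0.25 for Atf3 (genotype at 90 min), -0.08 to 0.35 for Egr2, -0.36 to 0.17 for Nr4a1 and -0.17 to 0.17 for the median (6 h), -0.21 to 0.23 for Atf3 (time in wild type), -1.3 to 0.14 for Ier2 and -2.79 to 0.33 for Nr4a1 (time in GdX-deficient), -0.27 to 0.86 for Junb and -0.07 to 3.05 for Nr4a1 (interaction), and -0.46 to 0.04 for Egr2 (time as covariate).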
